A study of Homo sapiens with 24 samples.

Results

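The proteasome is the protease complex that degrades proteins tagged with ubiquitin, and 34 of the 11963 genes measured on these arrays encode its constitutive subunits, its dedicated chaperones or its direct regulators. They are all genes whose probe set carries a single symbol made of PSMA, PSMB, PSMC, PSMD, PSME or PSMF and a number, without the interferon-inducible subunits PSMB8, PSMB9 and PSMB10. The RefSeq gene table lists 41 symbols of that form. PSMA6 and PSME2 lie only on probe sets shared with other symbols, and PSMA8, PSMB11, PSMC5, PSMD7 and PSMD13 were not analysed here. Of the 34 genes, 13 belong to the core particle (PSMA and PSMB), 17 are grouped by their PSMC and PSMD names as regulatory particle, 3 assembly chaperones (PSMD5, PSMD9 and PSMD10) included, and 4 are other regulators (PSME1, PSME3, PSME4 and PSMF1). All 34 lay above the filter on dim signal and none was at the floor of the scale in any group.

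The cells were LNCaP, an androgen-responsive human prostate cancer line. A plasmid (2.5 µg) encoding either a microRNA, which was miR-130a, miR-203 or miR-205, or a scramble sequence was introduced by nucleofection, and the series sought the transcripts that each microRNA binds directly. AGO2-bound RNA, recovered by co-immunoprecipitation with an antibody against AGO2, and total RNA were each hybridised from all 4 transfections. That gave 8 groups of 3 biological replicates, namely AGO2-bound RNA after miR-130a, miR-203, miR-205 and scramble, and total RNA after the same 4 plasmids, on 24 Affymetrix arrays that received 2 µg of RNA each. The microRNAs came from plasmids rather than the cells' own genes, all groups are of a single cell line, and no precipitate with another antibody was analysed here.

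In the proteasome, stacked rings of alpha and beta subunits form the core particle, whose chamber holds 3 kinds of catalytic site encoded by PSMB5, PSMB6 and PSMB7. The regulatory particle caps the core. Its PSMC subunits are ATPases that unfold the substrate and thread it into the chamber, and its PSMD subunits bind ubiquitin, scaffold the particle or cut the ubiquitin chain off. PSMD5, PSMD9 and PSMD10 carry PSMD names but encode chaperones that assemble the ATPase ring and leave the finished complex. The products of PSME genes cap the core in place of the regulatory particle, and PSMF1 encodes a protein first described as an inhibitor of the core. Proteasome subunit genes are known to be transcribed together, with NFE2L1 as the main activator when proteasome activity falls.

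The mature sequences of the transfected microRNAs are shown because the seed, bases 2 to 8 in capitals, is the part that pairs with a transcript held by AGO2. They are from RefSeq (GRCh38.p14). miR-203a-3p lies on the plus strand at chr14:104117469-104117490 and miR-205-5p on the plus strand at chr1:209432166-209432187. The seeds differ from each other, and miR-130a-3p is given by name.
hsa-miR-203a-3p: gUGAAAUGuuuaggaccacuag
hsa-miR-205-5p: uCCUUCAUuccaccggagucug

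Levels were deposited for each probe set as log2 expression, and every level below is on that scale and every difference is a log2 difference. Equal amounts of RNA were hybridised, so a difference between AGO2-bound and total RNA is relative to the other transcripts. In bulk RNA, fewer cells with a transcript and less transcript per cell cannot be told apart. The lowest value on an array took 3 levels: 2.344895 on the 6 miR-130a arrays, 2.346843 on the 6 miR-203 arrays and 2.347327 on the 12 miR-205 and scramble arrays. For miR-130a and miR-203 against scramble, the transfection and this processing set cannot be told apart. The comparison of miR-205 with scramble, and of AGO2-bound with total RNA within a transfection, stayed inside a set. Total RNA of scramble replicate 1 stood apart in its control probe sets, with a mean 18S ribosomal signal of 4.33, against 2.83 and 3.05 in the other scramble replicates. KLK3, KLK2, TMPRSS2, HOXB13 and FOLH1, markers of prostate luminal cells, were measured, KLK3 at 10.35 to 13.60 over all arrays. The basal marker KRT5, the leukocyte markers PTPRC, CD14 and CD3E and the fibroblast markers COL1A2 and DCN were within 0.05 of the floor on all arrays, KRT14 reached at most 2.65 and COL1A1 lay at 3.06 to 4.53.

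Proteasome transcripts were mostly under-represented in AGO2-bound RNA, and after miR-130a and scramble nearly the whole set was lower there than in total RNA. After scramble 28 of 34 were lower and 3 higher (adjusted p under 0.05, limma), where 37.8% of all 6782 genes tested were lower and 35.1% higher. After miR-130a 27 were lower and 1 higher, against a background of 38.3% and 33.3%. After miR-203 18 were lower and 10 higher, against 37.2% and 34.7%, and after miR-205 21 were lower and 10 higher, against 36.1% and 36.6%. The median difference of the 34 genes was -0.63 after miR-130a, -0.59 after miR-203, -0.95 after miR-205 and -1.07 after scramble, where the median of all genes lay between -0.08 and -0.01. Both particles took part: 12 of 13 core and 12 of 17 regulatory transcripts were lower after miR-130a, 7 and 9 with miR-203, 8 and 10 with miR-205, and 12 and 14 after scramble. The 12 AGO2-bound arrays also carried more 18S ribosomal signal, 7.35 to 9.05, than the 12 total RNA arrays, 2.83 to 4.33, and a gap between the 3′ and 5′ probe sets of ACTB of 2.22 to 3.94, against 2.00 to 2.445. The part of either in these differences was not tested.

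**Figure D1:**
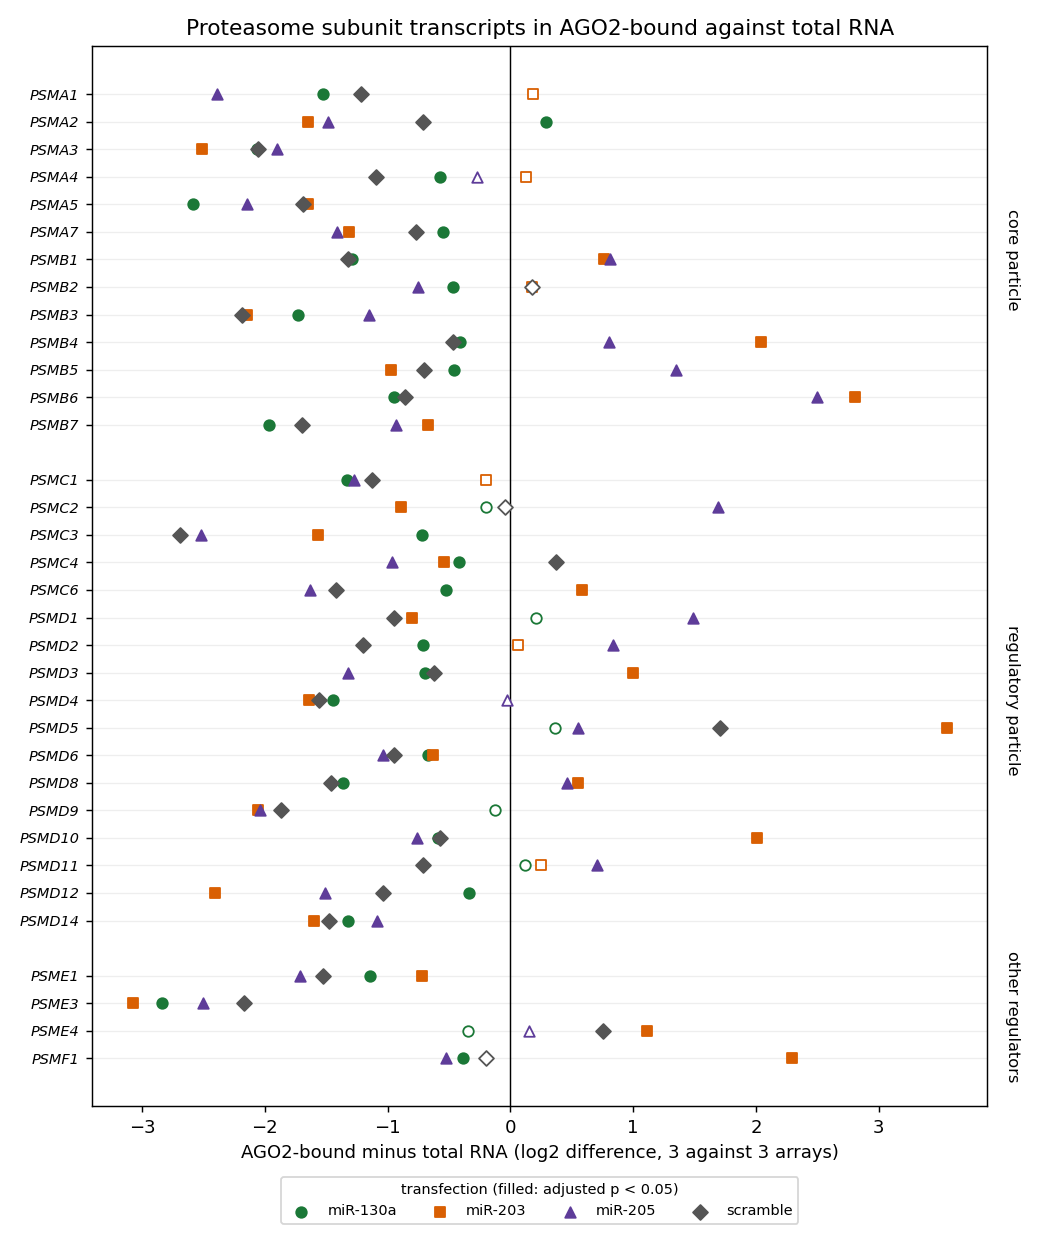
AGO2-bound minus total RNA (x axis, log2 difference) for each of the 34 genes (y axis), with a marker for each of the 4 transfections and filled markers for an adjusted p under 0.05. Scramble and miR-130a markers lie mostly left of zero, while 10 genes after miR-203 and 10 with miR-205 lie right of it and passed the test, with PSMD5 after miR-203, whose total RNA level was close to the floor, the farthest at 3.55.

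A group of 11 genes was lower in AGO2-bound RNA in all 4 transfections, 32.4% of the set against 16.2% of all genes, and none was higher in all 4, against 17.1% of all genes. They are PSMA3, PSMA5, PSMA7, PSMB3 and PSMB7 of the core, PSMC3, PSMD6, PSMD12 and PSMD14 of the regulatory particle, and PSME1 and PSME3. Here and below, transcripts shown by array were picked partly for groups without overlap, so that separation adds no support. PSMA3, an alpha ring subunit, had 6.64, 6.42 and 7.07 in AGO2-bound RNA, against 9.28, 9.20 and 9.18 in total RNA after miR-203. Every AGO2-bound array was below every total RNA array (5.69-fold lower; log2 difference -2.51 ± 0.15 (SE), adjusted p = 4.3e-13), and the difference was -2.07 after miR-130a, -1.90 after miR-205 and -2.06 after scramble. PSMA5, another alpha subunit, had 5.80, 5.37 and 6.08 in AGO2-bound RNA, against 8.32, 8.34 and 8.36 in total RNA after miR-130a. The groups were far apart (6.01-fold lower; log2 difference -2.59 ± 0.16 (SE), adjusted p = 5.7e-13), and after miR-205 the difference was -2.14. PSMB3, a structural beta subunit, had 7.22, 7.14 and 7.72 in AGO2-bound RNA, against 9.58, 9.51 and 9.55 in total RNA after scramble. Its groups did not overlap there (4.55-fold lower; log2 difference -2.19 ± 0.16 (SE), adjusted p = 1.3e-11) nor after miR-203, where the difference was -2.15.

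Of the regulatory particle and the other regulators, PSMC3 and PSME3 were the lowest in AGO2-bound relative to total RNA. PSMC3, an ATPase subunit, had 5.10, 4.57 and 4.96 in AGO2-bound RNA, against 7.54, 7.66 and 7.49 in total RNA after scramble. No array overlapped (6.44-fold lower; log2 difference -2.69 ± 0.16 (SE), adjusted p = 1.8e-13), and after miR-205 the difference was -2.52. PSMD14, which encodes the deubiquitinase of the particle, kept within the narrow range of -1.60 to -1.08 over the 4 transfections. PSMD6, a lid subunit, had the narrowest range, -1.03 to -0.63. PSMD9, an assembly chaperone, had 6.08, 5.96 and 5.83 in AGO2-bound RNA, against 8.22, 8.03 and 7.79 in total RNA after miR-203. The AGO2-bound arrays were all lower (4.16-fold lower; log2 difference -2.06 ± 0.15 (SE), adjusted p = 1.2e-11), with -2.04 after miR-205 and -1.86 after scramble, while after miR-130a its groups overlapped (log2 difference -0.12 ± 0.15, adjusted p = 0.47). PSMD4, a ubiquitin receptor, had 7.28, 7.34 and 7.29 in AGO2-bound RNA, against 8.71, 8.79 and 8.73 in total RNA after miR-130a, and PSMD8, a lid subunit, had 7.90, 7.87 and 7.96 against 9.33, 9.29 and 9.19. Both were lower without overlap, with differences of -1.44 ± 0.18 (adjusted p = 1.0e-07) and -1.36 ± 0.14 (SE; adjusted p = 7.7e-09).

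PSME3, whose product caps the core in the nucleus, had 4.75, 4.42 and 4.95 in AGO2-bound RNA, against 7.92, 7.71 and 7.70 in total RNA after miR-203. That was the largest deficit of the set (8.42-fold lower; log2 difference -3.07 ± 0.18 (SE), adjusted p = 2.4e-13), with -2.84 after miR-130a, -2.50 after miR-205 and -2.17 after scramble. A further PSME3 probe set went the other way after scramble, so its direction there depends on the probe set. PSME1, a subunit of the cap that interferon induces, had 6.20, 6.28 and 6.11 in AGO2-bound RNA, against 7.99, 7.85 and 7.89 in total RNA after miR-205. It too was lower on every AGO2-bound array (3.27-fold lower; log2 difference -1.71 ± 0.12 (SE), adjusted p = 8.1e-12), with -1.15 for miR-130a, -0.72 for miR-203 and -1.53 after scramble.

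The other transcripts depended on the transfection. For 15 of 34, or 44.1%, the AGO2-bound level was lower than total RNA in at least 1 transfection and higher in at least 1 other, against 20.5% of all genes. PSMB6, the catalytic subunit with caspase-like activity, spanned the widest range, from -0.95 after miR-130a to 2.81 after miR-203. It had 11.96, 12.08 and 11.51 in AGO2-bound RNA, against 9.25, 9.03 and 8.85 in total RNA after miR-203, and all AGO2-bound arrays were above all total RNA arrays (7-fold higher; log2 difference 2.81 ± 0.16 (SE), adjusted p = 1.5e-13). After scramble PSMB6 had 8.48, 8.41 and 8.36 in AGO2-bound RNA, against 9.25, 9.19 and 9.39 in total RNA, so the order was the opposite (1.81-fold lower; log2 difference -0.86 ± 0.16 (SE), adjusted p = 4.1e-05). PSMB4, a structural beta subunit, had 12.30, 12.33 and 11.97 in AGO2-bound RNA, against 10.13, 10.21 and 10.15 in total RNA after miR-203. Its groups were likewise separate (4.1-fold higher; log2 difference 2.04 ± 0.13 (SE), adjusted p = 6.9e-13), whereas after scramble the AGO2-bound level was the lower (-0.47, adjusted p = 0.002). PSMB5, the catalytic subunit with chymotrypsin-like activity and the main target of proteasome inhibitors, was higher in AGO2-bound RNA only after miR-205, at 10.04, 9.91 and 9.29, against 8.41, 8.47 and 8.32 in total RNA (2.55-fold higher; log2 difference 1.35 ± 0.16 (SE), adjusted p = 4.2e-08). It was lower in the other 3 transfections, with differences of -0.46 for miR-130a, -0.97 for miR-203 and -0.71 after scramble.

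Among regulatory transcripts the assembly chaperones PSMD5 and PSMD10 stood out after miR-203. PSMD5 had 6.14, 6.49 and 6.35 in AGO2-bound RNA, against 2.93, 2.81 and 2.58 in total RNA. The groups were far apart (11.7-fold higher; log2 difference 3.55 ± 0.18 (SE), adjusted p = 1.0e-14), but the total RNA arrays lay close to the floor of the scale with a mean under the filter of 2.85, so the size of this difference is uncertain. It was 1.71 after scramble (adjusted p = 4.9e-09). PSMD10, also known as gankyrin, had 9.76, 9.61 and 9.49 in AGO2-bound RNA, against 7.51, 7.74 and 7.58 in total RNA after miR-203. All 3 AGO2-bound arrays were higher (4.02-fold higher; log2 difference 2.01 ± 0.12 (SE), adjusted p = 3.4e-13), while after scramble PSMD10 was lower in AGO2-bound RNA (-0.58, adjusted p = 1.5e-04). After miR-205, PSMC2, an ATPase subunit, had 10.95, 11.13 and 10.99 in AGO2-bound RNA, against 9.30, 9.43 and 9.28 in total RNA, and PSMD1, a large scaffold subunit, had 8.45, 9.57 and 9.23 against 7.54, 7.61 and 7.64. PSMC2 was higher without overlap (3.23-fold higher; log2 difference 1.69 ± 0.10 (SE), adjusted p = 4.9e-13). PSMD1 was higher too (2.8-fold higher; log2 difference 1.48 ± 0.22 (SE), adjusted p = 2.1e-06), with a wider spread over the AGO2-bound arrays. After scramble the PSMC2 groups overlapped (log2 difference -0.05 ± 0.10, adjusted p = 0.69) and PSMD1 was lower in AGO2-bound RNA (-0.95, adjusted p = 5.2e-04). PSMC4, another ATPase, was the opposite case, with 8.73, 9.14 and 8.75 in AGO2-bound RNA, against 8.39, 8.54 and 8.57 in total RNA after scramble. That excess was small (1.29-fold higher; log2 difference 0.37 ± 0.16 (SE), adjusted p = 0.036) and lost its call with other scalings, and after miR-130a, miR-203 and miR-205 PSMC4 was lower in AGO2-bound RNA.

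PSMA1 and PSMD12 also had large deficits, while the PSMF1 excess rested on the probe set. PSMA1, an alpha subunit, had 7.29, 7.24 and 7.25 in AGO2-bound RNA, against 9.64, 9.74 and 9.58 in total RNA after miR-205 (5.25-fold lower; log2 difference -2.39 ± 0.13 (SE), adjusted p = 3.3e-14). After miR-203 its AGO2-bound and total RNA levels did not differ past the threshold (log2 difference 0.18 ± 0.13, adjusted p = 0.2). PSMA2 had 9.98, 10.35 and 9.96 in AGO2-bound RNA, against 9.82, 9.81 and 9.78 in total RNA after miR-130a, the only transcript of the set called higher there (1.22-fold higher; log2 difference 0.29 ± 0.12 (SE), adjusted p = 0.037), and the call did not survive the other scalings. PSMD12, a lid subunit, had 5.80, 5.22 and 5.69 in AGO2-bound RNA, against 7.98, 7.97 and 7.98 in total RNA after miR-203 (5.3-fold lower; log2 difference -2.41 ± 0.13 (SE), adjusted p = 7.4e-14). PSMF1 had 8.07, 8.09 and 8.08 in AGO2-bound RNA, against 5.72, 5.85 and 5.80 in total RNA after miR-203, with all AGO2-bound arrays higher (4.89-fold higher; log2 difference 2.29 ± 0.14 (SE), adjusted p = 5.0e-13). Its other probe set gave -0.32 in the same comparison, so the direction is that of the brighter probe set. PSME4, an activator found in the nucleus, had 6.71, 7.12 and 7.35 against 6.07, 6.004 and 5.76 (2.17-fold higher; log2 difference 1.12 ± 0.22 (SE), adjusted p = 7.3e-05). Its other probe sets gave 0.71 and, from the dimmest (mean 3.73), -0.07. Over the 4 transfections, 10 or 11 called genes had another probe set above the filter. All probe sets gave the same direction in 9 of 10 after miR-130a (not PSMB4), 9 of 11 after miR-203 (not PSME4 and PSMF1), 11 of 11 after miR-205 and 9 of 10 after scramble (not PSME3). For 18 of the 34 genes, PSMB6, PSMC3 and PSMD10 among them, there was a single probe set, so this check was not possible.

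In total RNA the subunit transcripts moved little, and most did not pass the test. After miR-130a 4 of 34 were higher and 1 lower than after scramble, where 15.9% of all genes were higher and 13.3% lower. After miR-203 2 were higher and 7 lower (background 19.8% and 19.8%). After miR-205 none was higher and 5 were lower (background 10.1% and 13.3%). All but 2 of these changes were under 2-fold. The median change was 0.07 after miR-130a, -0.07 after miR-203 and -0.14 with miR-205, against 0.01, 0.01 and -0.01 over all genes. After miR-205, which shares its processing set with scramble, 29 of the 34 differences were below zero, while 3497 of all 6782 were. Of the 5 luminal markers tested, none changed past the threshold in total RNA after miR-130a, 3 were lower after miR-203 (median of the 5 -1.22) and 2 were higher after miR-205 (median 0.40), and their part in these changes was not tested. Without scramble replicate 1, which stood apart, the calls numbered 7 after miR-130a, 10 after miR-203 and 5 with miR-205. Leaving out other arrays took them down to 2 after miR-130a (without miR-130a replicate 2 or scramble replicate 3) and 2 after miR-205 (without miR-205 replicate 1), and the fit of all 24 arrays left 1 and 2.

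After miR-130a, PSMC1, an ATPase subunit, had 8.83, 8.70 and 8.86 in total RNA, against 8.43, 8.26 and 8.21 after scramble. It was higher on every array (1.41-fold higher; log2 difference 0.50 ± 0.08 (SE), adjusted p = 7.9e-04). PSMD12 had 7.89, 7.85 and 7.80 after miR-130a, against 7.66, 7.45 and 7.50 after scramble (1.24-fold higher; log2 difference 0.31 ± 0.08 (SE), adjusted p = 0.011), again without overlap. In the core, PSMA7, an alpha subunit, had 9.02, 9.08 and 9.13 after miR-130a, against 8.94, 8.67 and 8.77 after scramble (1.21-fold higher; log2 difference 0.28 ± 0.09 (SE), adjusted p = 0.034). PSMA3 had 9.58, 9.56 and 9.59, against 9.37, 9.34 and 9.36 (1.16-fold higher; log2 difference 0.22 ± 0.07 (SE), adjusted p = 0.048), a call lost with the replicate number as a block (adjusted p = 0.057). PSMD8 was the single transcript called lower, with 9.33, 9.29 and 9.19 after miR-130a, against 9.48, 9.60 and 9.60 after scramble (1.22-fold lower; log2 difference -0.29 ± 0.09 (SE), adjusted p = 0.026). None of these 5 had overlapping groups, but the test on the same arrays had picked them, so this adds no support. Centring each array on its median left 2 higher and 2 lower calls after miR-130a.

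After miR-203 the largest total RNA falls of the set were in genes that encode no subunit of the finished particles. PSMD5 had 2.93, 2.81 and 2.58 after miR-203, against 4.25, 3.84 and 4.02 after scramble. The miR-203 arrays lay below all scramble arrays (2.4-fold lower; log2 difference -1.26 ± 0.14 (SE), adjusted p = 3.2e-05). PSMD10 had 7.51, 7.74 and 7.58, against 8.74, 8.77 and 8.88 after scramble, also without overlap (2.27-fold lower; log2 difference -1.18 ± 0.09 (SE), adjusted p = 1.4e-06). PSMF1 had 5.72, 5.85 and 5.80 after miR-203, against 6.99, 6.35 and 6.80 after scramble (1.89-fold lower; log2 difference -0.92 ± 0.14 (SE), adjusted p = 2.8e-04), while its other probe set gave only -0.15. These 3 calls held with each array left out in turn. In the particles themselves PSMB4 had 10.13, 10.21 and 10.15 after miR-203, against 10.66, 10.35 and 10.53 after scramble (1.27-fold lower; log2 difference -0.35 ± 0.09 (SE), adjusted p = 0.0086). PSMD3, PSMD8 and PSMD2, subunits of the regulatory particle, were also lower (-0.51 ± 0.12, -0.39 ± 0.09 and -0.38 ± 0.09, SE). PSMA7 had 9.10, 9.17 and 8.996 after miR-203, against 8.94, 8.67 and 8.77 after scramble (1.23-fold higher; log2 difference 0.30 ± 0.09 (SE), adjusted p = 0.02), and PSMD12 had 7.98, 7.97 and 7.98 against 7.66, 7.45 and 7.50 (1.36-fold higher; log2 difference 0.44 ± 0.08 (SE), adjusted p = 8.9e-04). The other PSMD12 probe set gave -0.36, and the mean of its probe sets 0.04 (adjusted p = 0.67).

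**Figure D2:**
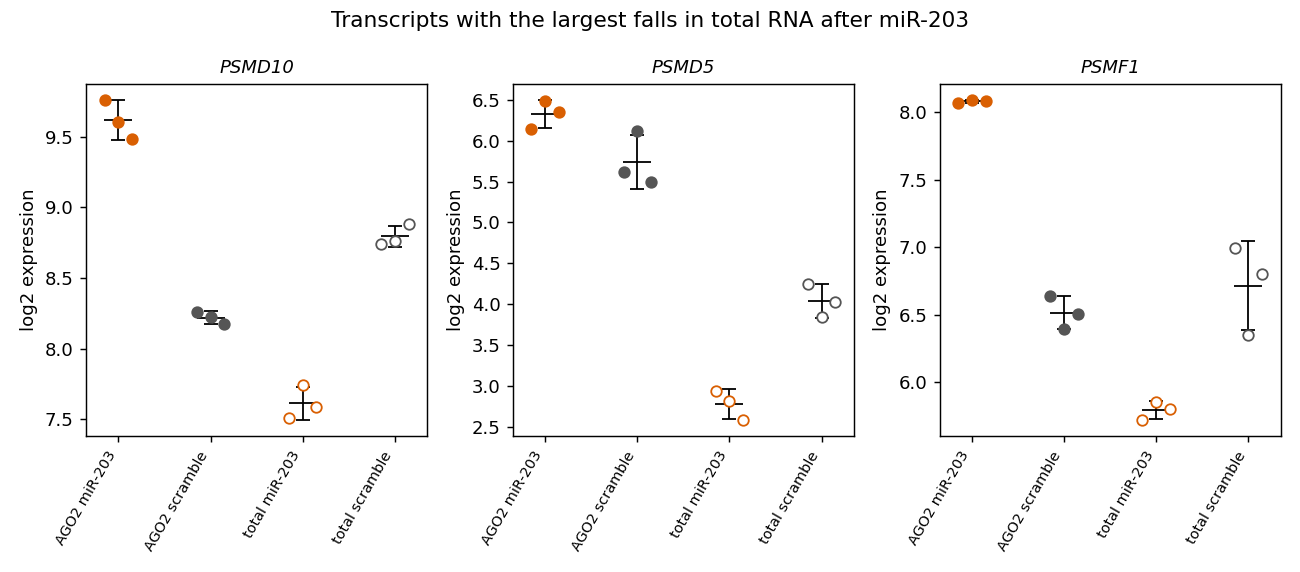
Log2 expression (y axis) of PSMD10, PSMD5 and PSMF1 on each array, in AGO2-bound RNA (filled) and total RNA (open) after miR-203 and scramble; bars show mean and SD of 3 arrays. In total RNA the miR-203 arrays lie below the scramble arrays, and in AGO2-bound RNA they lie above them.

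After miR-205 the calls were again modest and all downward. PSMB6 had 8.77, 8.91 and 8.70 in total RNA after miR-205, against 9.25, 9.19 and 9.39 after scramble. It was lower without overlap (1.39-fold lower; log2 difference -0.48 ± 0.11 (SE), adjusted p = 0.0058). PSMB5 had 8.41, 8.47 and 8.32, against 8.60, 8.91 and 8.84 after scramble (1.3-fold lower; log2 difference -0.38 ± 0.12 (SE), adjusted p = 0.036), and its call was lost with other scalings. PSMD8 had 9.01, 9.05 and 8.92 after miR-205, against 9.48, 9.60 and 9.60 after scramble, the largest fall of the set here (1.48-fold lower; log2 difference -0.57 ± 0.09 (SE), adjusted p = 5.7e-04). PSMD10 had 8.41, 8.36 and 8.59, against 8.74, 8.77 and 8.88 after scramble (1.27-fold lower; log2 difference -0.34 ± 0.09 (SE), adjusted p = 0.016). PSMB3 was also lower (-0.28, adjusted p = 0.018). None of these 5 transcripts had overlapping groups, but they were picked by the test on the same arrays, so this adds no support.

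In AGO2-bound RNA the subunit transcripts moved by more, with PSMB6 the largest rise after miR-203 and miR-205 and PSMC3 after miR-130a. After miR-130a 10 of 34 were higher and 6 lower than after scramble, where 18.6% of all genes were higher and 19.9% lower. After miR-203 17 were higher and 6 lower, against 22.7% and 28.8%, and after miR-205 14 were higher and 10 lower, against 20.4% and 23.7%. Same-numbered arrays deviated together for miR-130a and miR-203. For miR-205 they did so in replicates 1 and 3 (correlations with scramble 0.517 and 0.315) but not 2 (-0.045). With the replicate number as a block the calls were 13 higher and 6 lower after miR-130a and 18 higher and 6 lower after miR-203. Median changes were 0.12 after miR-130a, 0.43 after miR-203 and -0.12 with miR-205, against -0.05, -0.09 and -0.06 over all genes. Of the 13 core transcripts 3, 6 and 7 were higher after miR-130a, miR-203 and miR-205, and of the 17 regulatory transcripts 7, 9 and 7. The 3 comparisons share the AGO2-bound scramble arrays. The gap between 3′ and 5′ ACTB probe sets on AGO2-bound arrays was 2.22 to 2.78 after miR-130a, 2.299 to 2.93 after miR-203, 3.20 to 3.94 after miR-205 and 2.93 to 3.84 after scramble. On the miR-203 AGO2-bound arrays the 18S signal was 8.08 to 9.05, against 7.39 to 7.95 after scramble, and the 3′ to 5′ gap of GAPDH 0.601 to 0.888, against 1.23 to 1.57, both without overlap. The part of these signs of RNA quality in the changes was not tested.

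After miR-130a 7 of the 10 rises were in PSMC and PSMD genes, the chaperone PSMD9 among them. PSMC3 had 7.32, 7.17 and 6.67 in AGO2-bound RNA, against 5.10, 4.57 and 4.96 after scramble. The groups were well apart (4.53-fold higher; log2 difference 2.18 ± 0.18 (SE), adjusted p = 5.5e-07). PSMD9 had 7.64, 7.96 and 7.31, against 6.12, 5.85 and 6.09 after scramble, also without overlap (3.07-fold higher; log2 difference 1.62 ± 0.18 (SE), adjusted p = 7.4e-06). PSMD11, PSMD1 and PSMD12 rose by 1.08 ± 0.18, 1.08 ± 0.28 and 1.01 ± 0.17 (SE). The second PSMD1 probe set gave 0.85, and the other PSMD12 probe set only 0.20. Of the core, PSMA2 had 9.98, 10.35 and 9.96 after miR-130a, against 9.07, 9.03 and 8.93 after scramble (2.12-fold higher; log2 difference 1.09 ± 0.15 (SE), adjusted p = 5.5e-05), and PSMA4, also of the alpha ring, had 9.94, 10.37 and 10.37 against 9.58, 9.51 and 9.82 (1.5-fold higher; log2 difference 0.59 ± 0.17 (SE), adjusted p = 0.016). PSMA5 was lower, with 5.80, 5.37 and 6.08 after miR-130a, against 6.46, 6.42 and 6.48 after scramble (1.63-fold lower; log2 difference -0.70 ± 0.20 (SE), adjusted p = 0.015), and so was PSMB2, a structural beta subunit, with 8.35, 8.16 and 8.25 against 8.69, 8.83 and 8.90 (1.47-fold lower; log2 difference -0.55 ± 0.17 (SE), adjusted p = 0.016). PSMC4 had 7.58, 8.10 and 7.82 after miR-130a, against 8.73, 9.14 and 8.75 after scramble (2.05-fold lower; log2 difference -1.04 ± 0.19 (SE), adjusted p = 7.3e-04). PSMD5 had 5.06, 4.88 and 4.42, against 5.61, 6.12 and 5.50 after scramble (1.94-fold lower; log2 difference -0.96 ± 0.19 (SE), adjusted p = 0.0014). With no filter on dim signal PSMA5 and PSMD1 lost their calls. Without AGO2-bound scramble replicate 2 the calls after miR-130a fell to 10.

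After miR-203 the largest rises were in PSMB6 and PSMB4, and of the 7 beta ring transcripts PSMB1, PSMB4, PSMB6 and PSMB7 rose while PSMB2, PSMB3 and PSMB5 did not pass the test. PSMB6 had 11.96, 12.08 and 11.51 in AGO2-bound RNA, against 8.48, 8.41 and 8.36 after scramble. The lowest miR-203 array was over 3 log2 units above the highest scramble array (10.8-fold higher; log2 difference 3.43 ± 0.19 (SE), adjusted p = 1.3e-08). PSMB4 had 12.30, 12.33 and 11.97, against 10.08, 10.07 and 9.99 after scramble (4.45-fold higher; log2 difference 2.15 ± 0.15 (SE), adjusted p = 8.7e-08). PSMB1, a structural beta subunit, rose by a like amount (2.10 ± 0.16, SE), and its second bright probe set gave 2.20. In the regulatory particle PSMC6, an ATPase, had 9.02, 9.28 and 9.67 after miR-203, against 7.53, 7.45 and 7.41 after scramble (3.63-fold higher; log2 difference 1.86 ± 0.16 (SE), adjusted p = 4.7e-07), and PSMD8 had 9.70, 9.94 and 9.51 against 8.15, 7.92 and 8.24 (3.06-fold higher; log2 difference 1.61 ± 0.18 (SE), adjusted p = 5.6e-06). Both were higher on all arrays. PSMF1 had 8.07, 8.09 and 8.08 after miR-203, against 6.64, 6.40 and 6.50 after scramble (2.96-fold higher; log2 difference 1.57 ± 0.14 (SE), adjusted p = 7.2e-07), and its other probe set gave 1.68. PSME1 had 7.37, 7.51 and 7.49, against 6.46, 6.19 and 6.72 after scramble (2-fold higher; log2 difference 0.998 ± 0.15 (SE), adjusted p = 1.0e-04).

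Falls in AGO2-bound RNA after miR-203 were smaller, none reaching 2-fold. PSMA2 had 8.04, 7.95 and 8.12, against 9.07, 9.03 and 8.93 after scramble (1.96-fold lower; log2 difference -0.97 ± 0.15 (SE), adjusted p = 1.0e-04). PSMA3 had 6.64, 6.42 and 7.07, against 7.30, 7.08 and 7.51 (1.5-fold lower; log2 difference -0.59 ± 0.19 (SE), adjusted p = 0.021). PSMD12 had 5.80, 5.22 and 5.69 after miR-203, against 6.31, 6.44 and 6.76 after scramble (1.91-fold lower; log2 difference -0.93 ± 0.17 (SE), adjusted p = 3.7e-04), and PSMC4 had 7.86, 8.39 and 7.81 against 8.73, 9.14 and 8.75 (1.8-fold lower; log2 difference -0.85 ± 0.19 (SE), adjusted p = 0.0023). In each of these the groups did not overlap, which was a condition for showing them and adds no support. PSMA3 lost its call with no filter. PSME3 had 4.75, 4.42 and 4.95, against 5.42, 5.40 and 5.56 after scramble (1.69-fold lower; log2 difference -0.75 ± 0.21 (SE), adjusted p = 0.0091). Its other probe sets gave 0.01, 0.02 and -1.72, so this fall depends on the probe set.

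After miR-205 both particles had large rises. PSMB6 had 11.61, 11.42 and 10.84 in AGO2-bound RNA, against 8.48, 8.41 and 8.36 after scramble (7.32-fold higher; log2 difference 2.87 ± 0.19 (SE), adjusted p = 4.4e-08). PSMB1 had 11.02, 11.33 and 11.30, against 9.20, 9.10 and 9.52 after scramble (3.85-fold higher; log2 difference 1.94 ± 0.16 (SE), adjusted p = 3.0e-07), with 2.26 from its second bright probe set. All miR-205 arrays lay above all scramble arrays for both. PSMD1 had 8.45, 9.57 and 9.23 after miR-205, against 6.46, 6.80 and 7.21 after scramble (4.79-fold higher; log2 difference 2.26 ± 0.28 (SE), adjusted p = 2.0e-05), and its second probe set gave 2.04. PSMD2, the scaffold subunit that docks ubiquitin shuttles, had 8.43, 9.84 and 9.18, against 7.12, 7.07 and 7.17 after scramble (4.09-fold higher; log2 difference 2.03 ± 0.26 (SE), adjusted p = 2.0e-05). The miR-205 arrays spread widely for both, with an SD of 0.57 for PSMD1 and 0.70 for PSMD2. The fit uses a single spread per gene over all AGO2-bound groups. After scramble the PSMD2 SD was 0.05, so its SE can be too small and its p-value too low. PSMB5, PSMC2 and PSMD4 rose by 1.67 ± 0.18, 1.61 ± 0.12 and 1.43 ± 0.22 (SE). On the lower side PSMC4 had 7.28, 7.54 and 7.18 after miR-205, against 8.73, 9.14 and 8.75 after scramble (2.91-fold lower; log2 difference -1.54 ± 0.19 (SE), adjusted p = 2.0e-05), and PSMD5 had 4.48, 4.49 and 4.27 against 5.61, 6.12 and 5.50 (2.51-fold lower; log2 difference -1.33 ± 0.19 (SE), adjusted p = 7.6e-05). PSMA1 had 7.29, 7.24 and 7.25, against 8.23, 8.30 and 8.66 after scramble (2.19-fold lower; log2 difference -1.13 ± 0.16 (SE), adjusted p = 5.7e-05), and PSMB2 had 7.80, 7.65 and 7.58 against 8.69, 8.83 and 8.90 (2.19-fold lower; log2 difference -1.13 ± 0.17 (SE), adjusted p = 7.6e-05). PSME4 had 5.95, 6.53 and 6.48, against 6.61, 7.30 and 7.29 after scramble (1.68-fold lower; log2 difference -0.75 ± 0.25 (SE), adjusted p = 0.028). None of these overlapped, which was a condition for showing them and adds no support. PSME4 lost its call with no filter and with the mean of its probe sets.

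The catalytic subunits illustrate how far apart the members of a ring could move. PSMB6 was 10.8-fold higher in AGO2-bound RNA after miR-203 and 7.32-fold higher after miR-205, and after miR-130a it did not differ past the threshold (log2 difference -0.21 ± 0.19, adjusted p = 0.42). PSMB5 was 3.19-fold higher in AGO2-bound RNA after miR-205 alone, at 10.04, 9.91 and 9.29, against 8.10, 8.14 and 7.98 after scramble. After miR-203 the PSMB5 difference did not pass the test (log2 difference -0.29 ± 0.18, adjusted p = 0.19), nor after miR-130a (log2 difference 0.01 ± 0.18, adjusted p = 0.96). PSMB7, the subunit with trypsin-like activity, had 8.50, 8.77 and 8.39 in AGO2-bound RNA after miR-203, against 7.75, 7.50 and 7.64 after scramble (1.9-fold higher; log2 difference 0.92 ± 0.19 (SE), adjusted p = 0.0011). After miR-205 it had 8.55, 8.13 and 7.78, a wider spread that still cleared the scramble arrays (1.44-fold higher; log2 difference 0.52 ± 0.19 (SE), adjusted p = 0.038), and after miR-130a 7.42, 7.07 and 7.48 (log2 difference -0.31 ± 0.19, adjusted p = 0.23). In total RNA the largest difference of the 3 was -0.48, for PSMB6 after miR-205. With no filter on dim signal the PSMB7 call after miR-205 was lost.

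**Figure D3:**
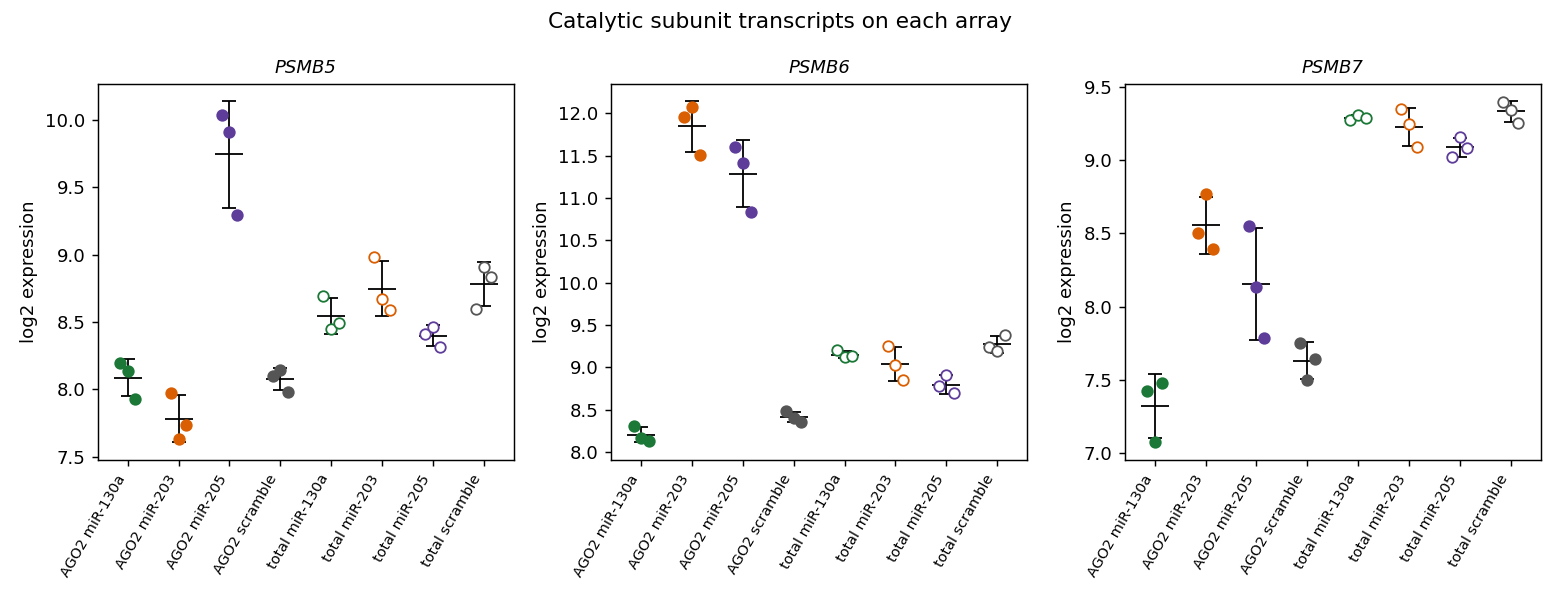
Log2 expression (y axis) of PSMB5, PSMB6 and PSMB7 on each of the 24 arrays, AGO2-bound RNA filled and total RNA open, with mean and SD of 3 arrays per group. AGO2-bound PSMB6 lies between 10.84 and 12.08 after miR-203 and miR-205, and between 8.13 and 8.48 after miR-130a and scramble.

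The change in AGO2-bound RNA was then tested against the change in total RNA, a difference in which an offset shared by the AGO2-bound and total arrays of a processing set cancels. AGO2-bound and total changes differed for 14 of the 34 genes after miR-130a, where 34.5% of all genes passed this test, for 23 after miR-203 (49.1%) and for 21 with miR-205 (42.8%). After miR-130a 8 were above zero and 6 below (background 16.2% and 18.4%), after miR-203 17 and 6 (background 22.1% and 27.0%), and with miR-205 13 and 8 (background 21.1% and 21.7%). In the regulatory particle the counts were 6 and 2, 9 and 3, and 6 and 4, and in the core 2 and 2, 6 and 2, and 7 and 4. PSMB6 had the largest difference after both miR-203 (3.67 ± 0.23, SE; adjusted p = 4.0e-12) and miR-205 (3.35 ± 0.23; adjusted p = 1.5e-11). PSMC3 (1.97 ± 0.22; adjusted p = 1.5e-07) and PSMD9 (1.74 ± 0.21; adjusted p = 4.9e-07) led after miR-130a, where PSMD5 (-1.34 ± 0.25; adjusted p = 1.4e-04) and PSME4 (-1.10 ± 0.31; adjusted p = 0.0068) were the lowest.

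Of the 13 falls in total RNA over the 3 microRNAs, 11 went with a rise in AGO2-bound RNA. Direct binding of these transcripts by the microRNAs was not tested, and after miR-203 17 of the 34 rose in AGO2-bound RNA whatever their change in total RNA. All 7 transcripts lower in total RNA after miR-203, namely PSMB4, PSMD2, PSMD3, PSMD5, PSMD8, PSMD10 and PSMF1, were higher in AGO2-bound RNA, whereas 28.3% of the 1342 genes lower in total RNA were. The other PSMF1 probe set gave only -0.15 in total RNA. PSMD10 had 9.76, 9.61 and 9.49 in AGO2-bound RNA after miR-203, against 8.26, 8.23 and 8.17 after scramble (2.64-fold higher; log2 difference 1.40 ± 0.14 (SE), adjusted p = 2.8e-06), a rise beside its 2.27-fold fall in total RNA. PSMD3 had 8.45, 8.79 and 8.01, against 7.21, 7.49 and 7.22 after scramble (2.17-fold higher; log2 difference 1.11 ± 0.18 (SE), adjusted p = 2.0e-04). The PSMD5 rise was the weakest, at 6.14, 6.49 and 6.35 after miR-203, against 5.61, 6.12 and 5.50 after scramble (1.5-fold higher; log2 difference 0.58 ± 0.19 (SE), adjusted p = 0.022), and it lost its call with no filter (adjusted p = 0.063) and without miR-203 replicate 2 or scramble replicate 1 or 3. PSMD2 also lost its AGO2-bound call with no filter (adjusted p = 0.055). After miR-205 PSMB3, PSMB5, PSMB6 and PSMD8 were lower in total RNA and higher in AGO2-bound RNA, 4 of 5 against 31.3% of the 905 genes lower in total RNA. PSMD8 had 9.69, 9.63 and 9.05 in AGO2-bound RNA after miR-205, against 8.15, 7.92 and 8.24 after scramble (2.55-fold higher; log2 difference 1.35 ± 0.18 (SE), adjusted p = 2.9e-05). PSMD10 was lower in both kinds of RNA after miR-205, at 7.90, 7.67 and 7.50 in AGO2-bound RNA, against 8.26, 8.23 and 8.17 after scramble (1.44-fold lower; log2 difference -0.53 ± 0.14 (SE), adjusted p = 0.0079). The single transcript lower in total RNA after miR-130a, PSMD8, did not change past the threshold in AGO2-bound RNA (log2 difference -0.19 ± 0.18, adjusted p = 0.42). These counts rest on few genes, and large AGO2-bound rises also occurred with no fall in total RNA, as for PSMB1 after miR-203 (total RNA 0.01 ± 0.09; adjusted p = 0.95) and PSMD2 after miR-205 (total RNA adjusted p = 1).

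**Figure D4:**
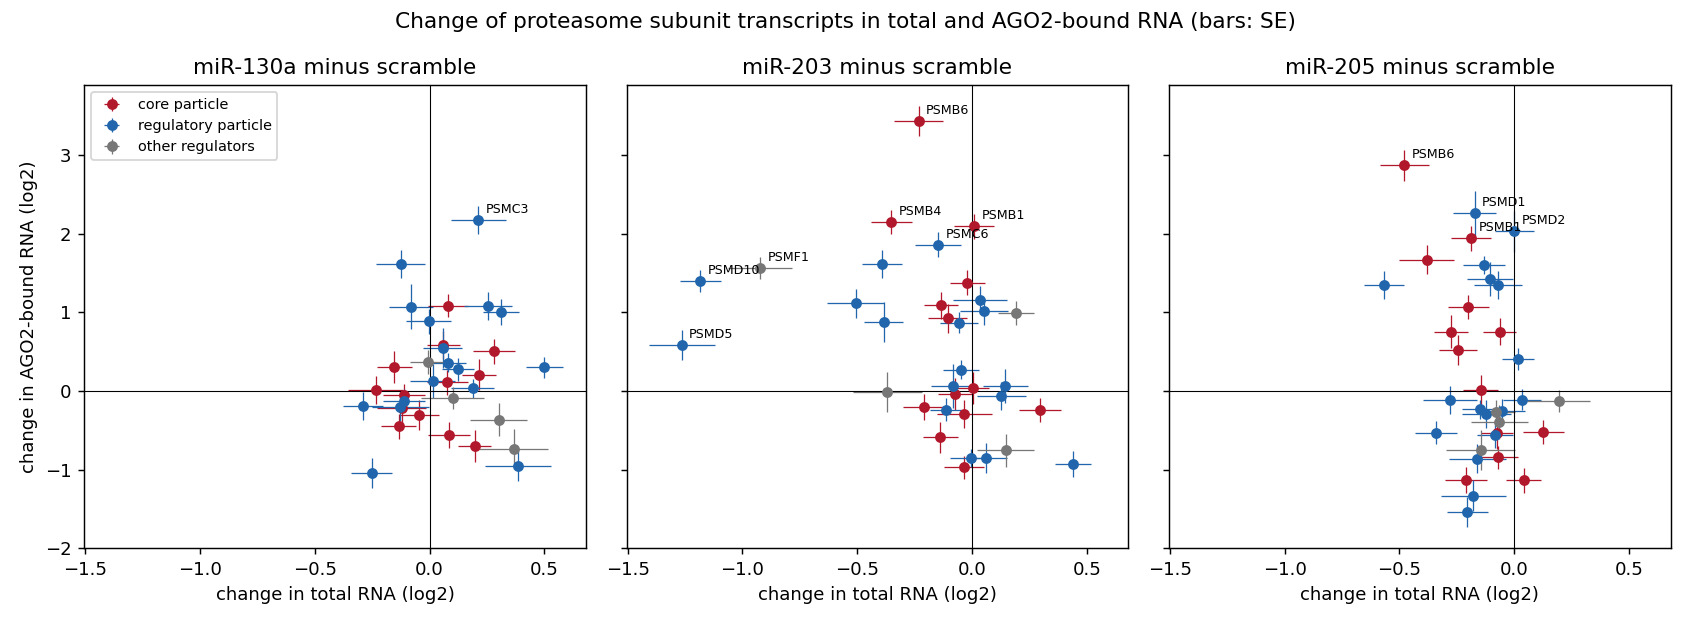
Change in AGO2-bound RNA (y axis, log2) against change in total RNA (x axis, log2) for the 34 genes after miR-130a, miR-203 and miR-205, each minus scramble; colours mark the particle and bars the SE. Points spread far more along the y axis than the x axis, and after miR-203 PSMD10, PSMD5 and PSMF1 lie at the upper left. Large changes were also more frequent in AGO2-bound than in total RNA over all genes.

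Genes of the wider pathway were read from lists chosen alongside the members. The immunoproteasome subunits, which interferon induces, were mostly silent: PSMB8 stayed within 0.05 of the floor but for a single total RNA array after miR-130a (2.47). PSMB9 had 2.35, 2.44 and 2.61 in AGO2-bound RNA and 2.85, 3.45 and 3.13 in total RNA after miR-130a and was at most 2.41 in every other group. PSMB10 was measured throughout, with 5.88, 5.36 and 5.54 in total RNA after miR-203, against 5.28, 4.75 and 5.07 after scramble (1.48-fold higher; log2 difference 0.56 ± 0.16 (SE), adjusted p = 0.014). In AGO2-bound RNA it had 5.88, 6.27 and 5.25 after miR-203, against 3.43, 3.19 and 3.39 after scramble (5.52-fold higher; log2 difference 2.46 ± 0.21 (SE), adjusted p = 6.1e-07). Of the 8 interferon response genes tested, all 8 were higher in total RNA after miR-130a (median 5.56) as well as after miR-203 (median 3.997), and 1 of 8 after miR-205 (median 0.07), and their part in the changes of the 34 genes was not tested. The background of higher calls over all genes was 15.9%, 19.8% and 10.1%. PSME1, an interferon-inducible member of the set, did not move past the threshold in total RNA after miR-130a (log2 difference -0.01 ± 0.08, adjusted p = 0.96), miR-203 (log2 difference 0.19 ± 0.08, adjusted p = 0.073) or miR-205 (log2 difference -0.08 ± 0.08, adjusted p = 0.53).

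Of the 4 transcription regulators tested, NFE2L1, NFE2L2 and MAFG, the small partner protein of both, showed no call in total RNA but for NFE2L2 after miR-130a (0.36 ± 0.10, SE; adjusted p = 0.02). NGLY1, the enzyme that activates the NFE2L1 protein, was higher in total RNA after miR-203 (0.52 ± 0.10; adjusted p = 0.0014). NGLY1 had 5.41, 5.30 and 5.66 in AGO2-bound RNA after miR-130a, 5.27, 5.23 and 5.34 with miR-203 and 5.54, 5.54 and 5.16 with miR-205, against 8.06, 8.68 and 8.11 after scramble. All microRNA arrays were below the shared scramble arrays, and the differences were -2.82, -3.003 and -2.87. Of the 4 assembly chaperones outside the set that were tested, 2, 1 and 0 were higher and 0, 0 and 2 lower in total RNA after miR-130a, miR-203 and miR-205. For these short lists the background over all genes was 15.9%, 19.8% and 10.1% higher and 13.3%, 19.8% and 13.3% lower, in the same order. Of the 5 proteasome-associated genes, 1, 0 and 1 were higher and 1, 1 and 1 lower, the lower one being ADRM1, a ubiquitin receptor, each time (-0.50, -0.52 and -0.47). ADRM1 had 8.87, 9.41 and 8.73 in AGO2-bound RNA after miR-205, against 6.12, 5.99 and 5.92 after scramble (7.96-fold higher; log2 difference 2.99 ± 0.18 (SE), adjusted p = 1.4e-08). Of the 5 shuttle and segregase genes, 2, 2 and 1 were higher and 0, 1 and 1 lower in total RNA. UFD1, a cofactor of the VCP segregase, was lower in total RNA after miR-203 (1.84-fold lower; log2 difference -0.88 ± 0.10 (SE), adjusted p = 2.6e-05) and higher in AGO2-bound RNA (4.36-fold higher; log2 difference 2.13 ± 0.16 (SE), adjusted p = 1.3e-07). UBA1, the ubiquitin-activating enzyme, was lower in total RNA after miR-203 (-0.39, adjusted p = 0.014), and UBB, a ubiquitin gene, was higher (0.28, adjusted p = 0.028).

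The promoters of the set were read for motifs of factors known to drive proteasome genes. RefSeq promoters (GRCh38.p14, 250 bases before to 50 after the start used in that table, which for PSMA1, PSMC2 and PSMD6 is not the outermost end of the gene) were matched for 29 of 34 genes. The letters TGACNNNGC, the core of the antioxidant response element that NFE2L1 and NFE2L2 bind, stood on either strand in 9 of 29, or 31.0%, against 13.6% of 27305 promoters. They were in 1 of 9 core, 6 of 16 regulatory and 2 of 4 other promoters. Of the 5 transcripts called lower in total RNA after miR-205, PSMB3 held these letters, while PSMB5, PSMD8 and PSMD10 did not. No promoter was matched for PSMB6. CCAAT stood on either strand in 14 of 29, or 48.3%, against 35.7%. The promoter of PSMB3, on the plus strand at chr17:38752491-38752790, is shown as the core promoter that holds both, with TGACNNNGC and CCAAT in capitals and no overlap between them. These letters are a description and were not tested for binding.
PSMB3 promoter: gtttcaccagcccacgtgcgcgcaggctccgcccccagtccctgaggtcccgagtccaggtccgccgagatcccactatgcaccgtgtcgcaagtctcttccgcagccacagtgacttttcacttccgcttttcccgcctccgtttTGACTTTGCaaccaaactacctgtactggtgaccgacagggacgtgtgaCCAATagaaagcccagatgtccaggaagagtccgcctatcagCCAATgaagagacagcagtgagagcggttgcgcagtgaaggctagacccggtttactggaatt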

How the data were processed

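RNA from 8 groups of 3 LNCaP samples was hybridised to Affymetrix arrays of 22277 probe sets. The deposited values are log2 expression, and the submitters' processing notes name GCRMA, RMA and R 2.9.0 without their order. The lowest value differs between 3 sets of arrays, so the authors' normalization appears to have been run in 3 sets; the notes give no account of this. Between 39.9% and 41.5% of probe sets on an array lay within 0.05 of its lowest value. No counts exist for arrays, and 3 arrays a group limit the precision.

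Probe sets with a single symbol in the platform annotation (19064) were kept, controls (62) and probe sets with several symbols (1043) were left out, and the brightest probe set by mean over 24 arrays stood for each gene. Genes with a mean of at least 2.85, the median over probe sets, were tested (6782 of 11963). Differences were fitted by lmFit and eBayes of limma 3.58.1 (R 4.3.3, two-sided), with Benjamini-Hochberg adjustment over all genes tested and a threshold of 0.05. AGO2-bound arrays (12) and total RNA arrays (12) were fitted apart for each microRNA against scramble, and all 24 together for the other comparisons. SE values are from these fits. In the fit of all 24 a gene has a single estimate of spread for both kinds of RNA, although their spread differed. Where AGO2-bound arrays spread widely, the SE can be too small and the p-value too low. An example is PSMD1 after miR-205, with an SD of 0.57 in AGO2-bound and 0.05 in total RNA. The fits of 12 arrays also use a single spread per gene over their groups, so the same limit holds there. For PSMD2 in AGO2-bound RNA the SD was 0.70 after miR-205 and 0.05 after scramble. The labels call the replicates biological; p-values cover the spread over these arrays alone, and no array was a copy of another. The methods were tested on simulated data: 94% of genes changed 2-fold were recovered for AGO2-bound against total RNA after scramble, 97% for total RNA and 82.1% for AGO2-bound RNA after miR-130a, and 70.1% for the difference of changes after miR-130a. Of genes changed 1.5-fold, 56.7%, 70.1%, 32.8% and 13.4% were recovered in the same order, with 13, 7, 6 and 7 false calls. The simulated arrays were independent, with a single spread per gene and few genes changed. These data differ in each of these, so the recovery need not carry over.

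Replicate numbers in the labels were checked as pairs. Same-numbered arrays deviated together in AGO2-bound RNA for miR-130a and scramble (correlations 0.5, 0.107 and 0.516) and for miR-203 and scramble (0.577, 0.162 and 0.437). For miR-205 and scramble in AGO2-bound RNA the correlations were 0.517, -0.045 and 0.315, so replicates 1 and 3 deviated together. In the remaining comparisons at least 1 of the 3 correlations was below 0.1.

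Members and lists were chosen with earlier results of these data known. Transcripts given with the value on every array are, per comparison and particle, up to 2 in each direction with the largest change. They had to pass the threshold without overlap, so their lack of overlap adds no support. PSMB5, PSMB6 and PSMB7 were added, and others were named after their values were seen. Alternatives were no filter, the mean of a gene's probe sets, quantile normalization, centring on the median, a fit over other sets of arrays, a block for the replicate number and leaving out each array.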

Additional observations from a re-analysis of the deposited data

Results flagged for a closer look

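For part of the set, the difference between AGO2-bound and total RNA was not the same after each microRNA as after scramble. By the limma test of the difference itself (adjusted p under 0.05), it differed for 14 of the 34 with miR-130a, 23 with miR-203 and 21 with miR-205. The same test passed for 34.5%, 49.1% and 42.8% of all genes tested, and the miR-130a count is near that share. Differences of at least 2 log2 units were met after miR-203 and miR-205.

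After miR-203 they were 3.67 for PSMB6 (adjusted p = 4.0e-12), 2.58 for PSMD10 (adjusted p = 1.0e-11), 2.50 for PSMB4 (adjusted p = 4.4e-11), 2.49 for PSMF1 (adjusted p = 2.7e-10), 2.09 for PSMB1 (adjusted p = 1.6e-09), 2.01 for PSMC6 (adjusted p = 4.9e-09) and 2.01 for PSMD8 (adjusted p = 1.5e-08). PSMD10 and PSMF1 also fell in total RNA, with differences of -1.18 and -0.92, whereas PSMB1 had no fall past the threshold in total RNA (0.01). The other PSMF1 probe set gave only -0.15 in total RNA.

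After miR-205 they were 3.35 for PSMB6 (adjusted p = 1.5e-11), 2.43 for PSMD1 (adjusted p = 8.9e-07), 2.13 for PSMB1 (adjusted p = 1.2e-09), 2.05 for PSMB5 (adjusted p = 5.5e-08) and 2.03 for PSMD2 (adjusted p = 2.5e-06). The miR-203 and miR-205 values share the scramble arrays. The statistical check for an outlying array needs at least 4 in a group and was not run on these groups of 3.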

How the results depend on the processing

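Over 258 differences of single genes, 3282 values under the alternatives stayed on the same side of the threshold with the same direction, 162 no longer passed it and none turned round. Counts in total RNA were the least stable. After miR-130a (5 of 34) the count was 9 with no filter, 11 with the mean of a gene's probe sets and 1 with all 24 arrays in the fit, and after miR-205 (5) it was 8 with the mean of probe sets and 2 with all 24 arrays. Leaving out 1 array gave 2 to 7 after miR-130a (2 without miR-130a replicate 2 or scramble replicate 3, and 3 without miR-130a replicate 1 or 3 or scramble replicate 2), 2 to 5 after miR-205 (2 without miR-205 replicate 1, and 3 without replicate 3 or scramble replicate 3) and 8 to 11 after miR-203. In AGO2-bound RNA it gave 10 to 15 after miR-130a (10 without scramble replicate 2), 21 to 23 after miR-203 and 20 to 23 after miR-205. For AGO2-bound against total RNA it gave 24 to 28 after miR-130a, 28 to 29 after miR-203, 30 to 32 after miR-205 and 30 to 31 after scramble, and for the difference of changes 12 to 15, 22 to 24 and 20 to 22. With the replicate block the calls in AGO2-bound RNA numbered 19 after miR-130a, 24 after miR-203 and 25 with miR-205, against 16, 23 and 24 without it, and those in total RNA 4, 9 and 5; PSMA3 in total RNA after miR-130a was the single call lost. Centring moved the median of all genes for AGO2-bound against total RNA by -0.172 after miR-205 and -0.133 after scramble, and left 0 higher and 28 lower of the 34 after miR-130a, 10 and 19 with miR-203, 9 and 22 with miR-205 and 2 and 29 after scramble. In total RNA after miR-130a it moved the share of higher calls over all genes to 41.7%, against 54.5% without it. The causes were not tested. Between 39.9% and 41.5% of probe sets lay near the floor of the scale, which limits low transcripts such as PSMD5.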
